A study of Drosophila melanogaster with 6 samples.

Results

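The transcripts described here are those of cDNA clones picked from Drosophila embryo libraries, measured in adult heads. They were taken as the array probes named for an LD or RE clone, that is LD or RE followed by 5 digits, that were not control spots and were well above background on all 3 arrays of WT or on all 3 of Top3b26. Of 235 such probes for 202 clones, 192 probes for 168 clones passed the background test, 94 of them LD and 98 RE, out of 23009 probes that passed on the whole array. WT heads came from adult w1118 flies, labelled TOP3B wildtype, and Top3b26 heads came from adults of a Top3b mutant stock that was obtained by remobilizing a P-element and carries the same W1118 background. Each group had 3 independently prepared RNA samples from bulk heads, 1 array each, with no sex given and with 1 mutant allele in 1 stock. In bulk heads, fewer cells of a type and less RNA per cell cannot be told apart.

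A cDNA clone is a DNA copy of an RNA that was present in the tissue from which its library was made, so an embryo clone records a transcript of the embryo and says nothing on whether the adult uses it. By the naming used in the Drosophila genome projects, LD clones come from an embryo library and RE clones from a normalized embryo library, in which abundant transcripts were thinned out to bring up rare ones. Genes first described for their part in embryonic patterning, axon guidance or epidermis formation are often used again in the adult nervous system and eye. Top3b is a topoisomerase that acts on both DNA and RNA.

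The array names most of these probes by the clone alone. RefSeq's gene table (Release 6 plus ISO1 MT) listed 30 of the 202 clones as synonyms of 29 genes, and 26 clones of 25 of those genes had a tested probe. The rest are called by their clone names, with no function given. Where on a gene or on which strand a probe lies is not given by that table.

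The 6 arrays differed in brightness. Median signal lay between 279 on Top3b26 2 and 1604 on Top3b26 3, between 71.1% and 81.2% of spots were well above background, and 0 spots were saturated. WT 1 and WT 2 shared slide 1 with Top3b26 1, while WT 3 was on slide 2 together with Top3b26 2 and Top3b26 3. On WT 1, 148 of the 159 spots that lay more than 2 (log2) below every other array sat in one low patch of 708 spots, and 3 embryo clone spots were among them. Top3b26 2 had more such low spots, 1813, of which 29 sat in that patch and 3 were embryo clone spots. The other arrays had between 6 and 119. No probe was named for Top3b or for the marker genes of neurons, eye, glia, fat body, muscle, testis, ovary or embryo, so the labels were not checked against them. Over the 6 probes of roX1 and roX2, RNAs made in males, the mean level ran from 3.97 to 4.53 in WT and from 4.27 to 5.37 in Top3b26.

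Most embryo clone probes were detected in adult heads. The share that passed the background test was 81.7%, against 71.5% of all probes, with 87.0% for LD and 77.2% for RE. Clones of adult head (81.5%) and ovary (80.2%) libraries had a like share. It was 73.6% for cultured cells, 71.0% for larva and pupa and 56.3% for adult testis. Of the 192 probes, 176 were well above background on all 6 arrays, 6 passed through WT only and 10 through Top3b26 only, 1 of these 10 for want of a value on WT 1. Of the 43 that did not pass, 29 were well above background on no array and 14 on some. Just outside the threshold were 5 probes with 2 of 3 arrays of a group, those of LD27273, RE24329, RE43111 and 1 probe each of RE02623 and RE32242. RE24329 had WT levels of -2.0, -2.54 and -3.81 and Top3b26 levels of 0.39, -5.12 and 1.76, in replicate order. Just inside it, the second probe of RE02623 had levels of -3.15, -3.86 and -3.69 in WT and of -3.40, -3.12 and -3.67 in Top3b26, and was well above background on 2 WT arrays and 3 Top3b26 arrays. Levels are log2 signals relative to the mean of the array, so that 0 is an average spot, and they are comparable between arrays for one probe but not between probes.

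Few embryo clone probes were called as different between WT and Top3b26 heads. At a limma adjusted p of 0.05 or less over all tested probes, 3 of the 192 (1.56%) were called, against 0.882% of all probes. RE56633 was higher in Top3b26 (1 of 192, background 0.169%), and RE46882 and LD26673 were lower (2 of 192, background 0.713%). With the brightest probe of each clone, the same 3 of 168 clones were called, against 0.892% of all identifiers. At an unadjusted p under 0.05 there were 21 members (10.9%), against 11.2% of all probes. The count of called probes depended on the arrays used, with 9 called without Top3b26 2 (4.69%, and 2.16% of all probes), 1 without WT 3 and 0 without WT 1, WT 2 or Top3b26 1, and with 1 called when slide was a block.

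LD26673 is a clone of CR14033, which RefSeq annotates as a pseudogene. Here and for every clone after it, the levels of a group are given in the order of its replicates 1, 2 and 3. LD26673 read 0.51, 0.41 and 1.12 in WT, and -3.68, -3.43 and -3.27 in Top3b26. All 3 mutant arrays lay below all WT arrays, and the probe was not well above background on Top3b26 2. The difference was -4.14 ± 0.27 (SE, n = 3 per group), with a limma adjusted p of 0.0054, and it was -4.13 within slide 1 and -4.47 within slide 2. With normexp background correction it was -2.26 (limma adjusted p 0.244), and no fold is given since 1 mutant array was not well above background. The probe has 2 spots, and on Top3b26 3 they were far apart. One gave a signal of 93.1. The other gave 11026, a level of 3.68, was marked as a non-uniform outlier by the scanner software and was left out. With outlier spots kept, the difference was -2.98 and the limma adjusted p was 0.379, so the call rests on that exclusion. The other clone of CR14033, LD26231, gave smaller differences. Its first probe had levels of -0.63, -0.44 and -0.24 in WT and of -0.82, -0.12 and -0.98 in Top3b26, and its second had 2.57, 2.79 and 2.86 in WT and 2.36, 2.76 and 1.83 in Top3b26. The groups overlapped at both, with differences of -0.20 ± 0.30 and -0.42 ± 0.29 (SE; limma adjusted p 0.862 and 0.694).

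RE46882, a clone with no gene name here, was also lower in the mutant. Its WT levels were -0.38, -0.01 and -0.44, and its Top3b26 levels were -3.45, -3.05 and -3.09. The groups were widely apart, each within a range of 0.43 or less, and the probe was well above background on all 6 arrays. The difference was -2.92 ± 0.23 (SE), 7.56-fold lower, with a limma adjusted p of 0.0095. With normexp background correction it was -1.52 and was not called. Within slide 1 it was -3.26 and within slide 2 it was -2.63, and with slide as a block the limma adjusted p rose to 0.069.

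RE56633, likewise unnamed, was the member with the largest increase. WT levels were 1.43, 1.84 and 1.67, and Top3b26 levels were 5.08, 4.18 and 5.97. The lowest mutant array stood above the highest WT array by more than the whole range of the 3 mutant arrays (1.79). The difference was 3.43 ± 0.47 (SE), 10.8-fold higher, with a limma adjusted p of 0.048, and it was 3.45 and 3.41 within the slides. This p lay close to the threshold, and it was 0.192 with slide as a block.

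At a looser limit, a limma false discovery rate of 0.3 or less with a fold of 1.5 or more, 16 members passed (8.33%), against 6.08% of all probes. They were 8 higher (background 1.69%) and 8 lower (background 4.39%), 3 of them LD and 13 RE. These are 2 of the criteria in the study's methods. The others, among them filters on test p-values and on detection p-values and a limit on average signal, were not applied here. Without Top3b26 2 the 16 became 72 (37.5%), 16 higher and 56 lower, where 40.6% of all probes passed. They became 3, 4, 7 and 7 without WT 2, WT 3, WT 1 and Top3b26 1, where between 0.930% and 2.13% of all probes passed. The WT and Top3b26 arrays did not overlap at 34 members (17.7%), against 19.8% of all probes, with 12 higher (background 4.86%) and 22 lower (background 15.0%). RE probes made up 23 of the 34 and LD probes 11.

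RE14563 was measured by 2 probes, and both gave nearly the same difference. One had levels of 4.74, 4.67 and 4.91 in WT and of 6.82, 7.60 and 6.39 in Top3b26. The other had 4.49, 4.62 and 4.97 in WT and 6.68, 7.68 and 6.16 in Top3b26. At both probes every mutant array was above every WT array, and Top3b26 2 was the highest. The differences were 2.17 ± 0.35 and 2.15 ± 0.43 (SE), 4.49-fold and 4.43-fold higher. Their limma adjusted p of 0.068 and 0.121 missed the threshold, and with each array shifted to a median difference of 0 they were 0.011 and 0.025. With slide as a block they rose to 0.258 and 0.362, and with replicate as a block to 0.233 and 0.287.

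Among the other members measured on all 6 arrays with no overlap, the clone of GramD1B (RE58243) was next in size of increase. The mammalian GRAMD1 proteins carry sterols between membranes. Its levels were -2.11, -2.79 and -2.47 in WT and -0.66, -1.17 and -0.03 in Top3b26, a difference of 1.83 ± 0.36 (SE; limma adjusted p 0.121). RE57135, a clone of the pseudogene CR14798, read -1.48, -1.33 and -1.05 in WT and 0.52, 0.78 and -0.36 in Top3b26, a difference of 1.60 ± 0.35 (SE; limma adjusted p 0.148). Neither passed the threshold of 0.05, although both groups were apart at each.

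On the lower side, RE46574 followed RE46882 in size. Its levels were -0.62, -0.58 and -0.70 in WT and -2.84, -1.55 and -2.59 in Top3b26, a difference of -1.69 ± 0.37 (SE; limma adjusted p 0.148). RE36839 had levels of 3.46, 3.76 and 3.49 in WT and of 2.18, 2.55 and 1.68 in Top3b26, a difference of -1.43 ± 0.28 (SE; limma adjusted p 0.121). The WT values of both were tight, and Top3b26 2 was the mutant array nearest to WT. The clone of CG14191 (RE09269) read 0.93, 1.46 and 1.55 in WT and 0.22, -0.05 and -0.49 in Top3b26, a difference of -1.42 ± 0.29 (SE; limma adjusted p 0.130).

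At 4 members the probe was well above background on every array of one group and on none of the other. The fold is therefore given as a lower bound, for the background subtraction used in the main comparison only. It was computed against the lowest level of any probe well above background on each dim array, or the probe's own level where that was higher. Each of the 4 passed the background test only through the group where it was brighter, so its direction was set by that selection and is no result. The bound also takes no account of the spread between arrays. RE09021 was at least 11.4-fold lower in Top3b26, and the groups did not overlap. It read 1.52, -0.01 and -3.33 in WT, in replicate order, and -6.71, -5.48 and -6.62 in Top3b26. The WT arrays themselves spanned 4.85, and the limma adjusted p was 0.148. The level on WT 3 was no higher than the lowest level well above background on Top3b26 2 (-3.33), so that WT array gives no fold against it. The clone of tun (LD38553) was at least 1.98-fold lower, with levels of -3.14, -2.43 and -3.33 in WT and of -4.52, -3.09 and -4.34 in Top3b26 that overlapped (limma adjusted p 0.521). The clone of CG13049 (RE26528) was at least 1.61-fold higher, with levels of -5.05, -4.83 and -4.32 in WT and of -4.07, -2.81 and -3.08 in Top3b26 that did not overlap (limma adjusted p 0.261). LD11736 was at least 1.21-fold higher (limma adjusted p 0.698), with overlapping groups. None of these 4 was called. With normexp background correction the differences were -1.93 for RE09021, -0.34 for tun, 0.02 for CG13049 and -0.081 for LD11736. These are smaller than the bounds, and that of LD11736 has the other sign, so the bounds do not hold under that correction.

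Transcription factors form one group among the clones with a gene name. The clone of retn (LD35748), an ARID-domain transcription factor, had levels of 3.70, 4.33 and 4.35 in WT and of 2.77, 3.30 and 2.75 in Top3b26. That of cnc (RE05559), a bZIP factor related to mammalian Nrf2, had levels of -0.05, -0.30 and -0.03 in WT and of -1.02, -0.64 and -1.20 in Top3b26. At both genes all mutant arrays were below all WT arrays. The differences were -1.19 ± 0.29 for retn and -0.83 ± 0.23 for cnc (SE), with limma adjusted p of 0.183 and 0.252. For eya, a phosphatase and transcriptional coactivator needed to form the eye, the 2 probes of LD16029 gave differences of -0.99 ± 0.47 and -0.92 ± 0.46 (SE; limma adjusted p 0.537 and 0.560). The first eya probe read -0.29, 0.24 and 0.10 in WT and -0.90, -0.14 and -1.88 in Top3b26, so Top3b26 2 alone fell among the WT arrays. The 3 probes of LD38807 for grh, a transcription factor of the epidermis, gave differences of 0.47, 0.35 and 0.27 with SE of 0.46 to 0.56 and limma adjusted p of 0.783 to 0.914. The probe with 0.47 was well above background on only 1 WT array. The clone of otp, a homeodomain factor, differed by 0.17 ± 0.45 (SE; limma adjusted p 0.936). None of these 5 genes was called.

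None of the enzyme and chromatin genes given next was called. The clone of cl (RE06767), the clot gene of drosopterin eye pigment synthesis, read 5.21, 5.32 and 5.11 in WT and 5.51, 6.04 and 5.51 in Top3b26. The groups did not overlap, with a difference of 0.47 ± 0.23 (SE; limma adjusted p 0.552). Hmt4-20, a methyltransferase of histone H4 lysine that is linked to heterochromatin, had levels of 1.05, 1.59 and 1.80 in WT and of 0.91, 2.04 and 0.63 in Top3b26, with a difference of -0.29 ± 0.44 (SE; limma adjusted p 0.869). The mutant arrays of Hmt4-20 stood on both sides of WT. Usp47, a deubiquitinase, differed by -0.29 and -0.24 at 2 probes (limma adjusted p 0.755 and 0.833). Sdhaf3, an assembly factor of succinate dehydrogenase, differed by 0.15 ± 0.37 (SE; limma adjusted p 0.926).

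Nor was any of the genes of the cell surface and of signalling. Caps, a leucine-rich repeat protein of the cell surface, read 2.73, 2.93 and 2.93 in WT and 2.48, 3.23 and 2.34 in Top3b26, with a difference of -0.18 ± 0.29 (SE; limma adjusted p 0.880). Sema1a, a semaphorin of axon guidance, differed by -0.06 and 0.16 at 2 probes (limma adjusted p 0.975 and 0.939). The spot of its second probe lay in the low patch of WT 1, where it read 0.22 against 1.20 and 1.21 on WT 2 and WT 3. The clone of sdk, an immunoglobulin-family adhesion protein, differed by -0.21 (limma adjusted p 0.922), and that of myo, a ligand of the TGF-beta family, by -0.13 (limma adjusted p 0.946). The SEs of these differences lay between 0.29 and 0.48, so changes of that size would not have been detectable here. Among genes with no role given, the clone of CG13678 read -2.03, -1.57 and -1.81 in WT and -1.39, -0.92 and -1.50 in Top3b26. Its groups did not overlap, and its limma adjusted p was 0.535 at a difference of 0.53.

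Over the 32 tested probes with a gene name, 1 was called, that of LD26673, against 0.882% of all probes. At 9 of the 32 (28.1%) the groups did not overlap, against 19.8% of all probes, with 5 higher (background 4.86%) and 4 lower (background 15.0%), and the median difference was -0.16. The clones of CG13159, CG14265, Ilp4, which encodes an insulin-like peptide, and lncRNA:CR30009 had no tested probe. For Ilp4, 1 of its 2 probes was well above background on 1 array and the other on none.

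Where a clone had more than 1 tested probe, the probes mostly gave like differences. There were 20 such clones with 44 probes, 16 clones with 2 and 4 with 3. All probes of a clone had the same sign in 17 of the 20, and their differences lay within 0.5 of each other in 16, with a median spread of 0.15. Over the 28 pairs of probes the differences correlated with r = 0.779, as a description, since both probes of a pair share the 6 RNA samples. At RE14563 and RE43210 every probe had groups that did not overlap. RE43210 had differences of -1.29 ± 0.42, -1.29 ± 0.45 and -0.48 ± 0.27 (SE; limma adjusted p 0.326, 0.361 and 0.629). Its first probe read 7.49, 7.81 and 7.23 in WT and 6.23, 6.96 and 5.49 in Top3b26. The third has no value on WT 1, where its only spot lay in the low patch and was marked as an outlier at 1.08, and with outlier spots kept its difference turned to 1.38.

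The probes disagreed by more than 1 at 2 clones. LD42550 gave -0.74, 0.31 and 0.67 at its 3 probes (limma adjusted p 0.579, 0.924 and 0.728). Its first probe was low on Top3b26 2, at -1.26 against 0.16 and -0.46 on the other mutant arrays, while its second was high there, at 0.25 against -1.69 and -2.58. LD10495 gave 0.75 ± 0.44 and 2.74 ± 1.71 (SE; limma adjusted p 0.626 and 0.651). The 2 spots of its first probe disagreed, at 0.52 and -2.15 on WT 1 and at 1.62 and -0.35 on Top3b26 1. Neither spot was in the patch or marked as an outlier. The spot of its second probe lay in the low patch of WT 1, where it read -6.04 against -0.69 and 0.18 on WT 2 and WT 3, and without that patch its difference was 0.82.

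Spread between replicates was larger in the mutant. The median SD of the members was 0.225 in WT and 0.556 in Top3b26, and the SD was higher in Top3b26 for 177 of 192 (92.2%). All tested probes had medians of 0.226 and 0.538 and a share of 88.8%, close to those of the members. The median range over 3 arrays was 0.428 in WT and 1.06 in Top3b26, and it was over 2 for 4 members in WT and 19 in Top3b26.

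The spread was shared over many members. Top3b26 2 was the highest of the mutant arrays at 163 members (84.9%; 70.8% of all probes) and Top3b26 3 the lowest at 154 (80.2%; 66.6% of all probes). Clones of adult head (84.6% and 80.6%) and ovary (91.3% and 88.4%) libraries had like shares, so these were not particular to embryo clones. Lower shares were seen for larva and pupa clones (68.2% and 59.1%) and adult testis clones (38.8% and 22.5%). Cultured cell clones also had lower shares, at 48 and 46 of 64 probes. Relative to each probe's mean over the 6 arrays, the median member stood at -0.11, 0.16 and 0.14 in WT and at -0.16, 0.42 and -0.52 in Top3b26, arrays in replicate order. All tested probes had a like pattern, with medians of -0.04, 0.15 and 0.13 in WT and of -0.12, 0.26 and -0.45 in Top3b26. The excess on Top3b26 2 was 0.69 for the 96 dimmer members and 0.28 for the 96 brighter ones. Top3b26 2 was the dimmest array and Top3b26 3 the brightest, and the part of brightness in this pattern was not tested. Over the 191 members with a value on every array, the arrays correlated from 0.838 (Top3b26 2 with Top3b26 3) to 0.988 (WT 2 with WT 3).

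The median member differed between the groups much as the median probe of the array did. The members' median difference was -0.16, against -0.15 for all tested probes, with 66 members higher and 126 lower in Top3b26. With each array shifted to a median difference of 0, both medians were 0.03 and the counts were 103 and 89. That shift brings the median of all probes near 0 by design, so it says nothing on the direction. The members' median was -0.09 with the 75th percentile shift, -0.19 with quantile normalization and -0.05 with normexp. Without Top3b26 3 it was 0.06, so the direction depended on the arrays used. Differences over 1 in size were seen at 22 of 192 members and at 2641 of 23009 probes over the whole array, and 143 (74.5%) lay within 0.5 against 67.9% of all probes. LD clones had a median of -0.12 with 5 of 94 over 1 in size, and RE clones a median of -0.18 with 17 of 98. That contrast between the libraries was not tested.

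A few members swung between the mutant arrays and not between the groups. RE37763 read 7.15, 6.68 and 5.43 in WT and 7.47, -5.30 and 7.97 in Top3b26, where the signal on Top3b26 2 was 5.07. RE09036 read 4.0, 3.50 and 2.32 in WT and 4.30, -3.51 and 6.44 in Top3b26. Both were high in WT and on Top3b26 1 and 3, and low on Top3b26 2 alone. RE60340 had levels of -2.89, -2.74 and -2.07 in WT and of -1.91, -5.56 and 1.81 in Top3b26, and RE38722 had 2.47, 1.37 and 0.87 in WT and 2.94, -1.07 and 5.58 in Top3b26. At these 2 clones Top3b26 2 was the lowest and Top3b26 3 the highest of all 6 arrays. The limma adjusted p of the 4 clones lay between 0.826 and 0.942, and without Top3b26 2 the difference of RE37763 turned from -3.04 to 1.30. On levels shifted to a median difference of 0, 4 members (2.08%), all RE, were more than 3 higher on Top3b26 3 than on Top3b26 2. This compares with 9.69% of all probes and 34 of 80 probes (42.5%) for clones of the adult testis library AT. The share was 3.64% for adult head clones, 3.1% for cultured cell clones, 0% for ovary clones and 13.6% for larva and pupa clones.

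In WT, the widest ranges beside LD10495 came from RE23826, with levels of 0.17, 5.72 and 5.90 against 5.51, 5.52 and 5.42 in Top3b26. On WT 1 its 2 spots read -6.03, inside the low patch, and 6.36, outside it. Without the patch its difference turned from 1.56 to -0.51 (limma adjusted p 0.521).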

How the data were processed

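Cy3-labelled RNA from adult heads was hybridized to 6 one-colour arrays, 3 WT and 3 Top3b26. Per the file headers, the deposited intensity values are Feature Extraction 11.5.1.1 processed signals, background-subtracted and detrended within each array, not normalized between arrays. The authors also deposited z-scores of log signal (score values), which were used as an alternative.

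As in the study's methods, log2 signals were z-transformed per array, here over non-control spots, and brought back to a log2 scale by the mean array SD (3.89). Outlier spots were left out and the spots of a probe averaged. A probe was tested if well above background on all arrays of a group. limma 3.58.1 in R 4.3.3 compared Top3b26 with WT with no covariate, with Benjamini-Hochberg adjustment over 23009 of 32162 probes. The number of arrays limits the precision. The fit was run on simulated data with independent noise, of the same SD in both groups. Those data had neither the larger spread of the mutant nor shifts shared over an array. The run therefore does not show the error rate on these arrays. Fatp3, roX1 and roX2 were to be left out of the members, and 0 members were left out by that rule.

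Named members were those called, the 4 largest non-overlapping increases and decreases measured on all 6 arrays, those with a bound, the widest ranges (4 in Top3b26 and 2 in WT), up to 20 with a gene name by smallest p, and the 3 clones whose probes differed most or had the largest mean difference. Other clones with gene names were added after their values were seen, as were the probes near the background threshold. Members and lists were chosen with earlier results of these data known. Normexp (offset 50) used median signals, since the scanner files read here hold no mean signal column. The values of 1 clone with a gene name are not reported here.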

Additional observations from a re-analysis of the deposited data

How the results depend on the processing

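With 3 arrays per group of unequal brightness, counts of calls moved with the processing, and the cause was not tested. The 3 called probes became 7 with median-difference scaling (3 higher, 4 lower), 0 with normexp, 1 with slide as a block and 0 with the replicate block. Same-numbered arrays of the groups deviated together with r = 0.564, 0.591 and -0.371, and not every array correlated best with its own number. With 3 arrays per group the deviations within a group sum to 0, so these r cannot settle whether the arrays were prepared as pairs. The labels give only a shared number, and the main fit took no pairs. Leaving out 1 array gave 0 to 9, with 9 without Top3b26 2, 0 without WT 1, WT 2 or Top3b26 1, and 1 without WT 3. The split of 1 higher and 2 lower was 2 and 2 with the 75th percentile shift or quantile normalization. The 3 called clones became 6, 0, 1 and 0 under those same 4 settings, and 0 to 8 with 1 array left out (8 without Top3b26 2, 0 without WT 1 or Top3b26 1, and 1 without WT 2 or WT 3). The 16 members past a false discovery rate of 0.3 and a fold of 1.5 became 30, 5, 4 and 9, and 3 to 72 with 1 array left out (72 without Top3b26 2, 15 without Top3b26 3 and 7 or fewer without each of the others). Over all probes, the 203 called became 355 with the 75th percentile shift, 531 with median-difference scaling, 137 with quantile normalization, 43 with normexp, 44 with slide as a block, 13 with the replicate block, 123 without a filter on dim probes, 87 with a plain test of the groups, and 17 to 498 with 1 array left out. Over all probes, the 1398 past the looser limit became 2169 with median-difference scaling, 168 with normexp, 421 with slide as a block, 615 with the replicate block, 791 without a filter on dim probes, and 214 to 9344 with 1 array left out (9344, or 40.6%, without Top3b26 2, where the members had 37.5%, 16 higher and 56 lower). The median difference ranged from -0.40 without Top3b26 2 to 0.06 without Top3b26 3. LD26673 had an adjusted p of 0.244 with normexp, 0.064 with the replicate block and 0.050 to 0.053 without WT 1, WT 2 or Top3b26 1. Directions turned under normexp for LD11736 (-0.081), one LD42550 probe (-0.0015), one LD38807 probe (-0.013), LD07388 (0.0075, and 0.0077 with median-difference scaling) and RE09036 (0.17). They turned without Top3b26 2 for RE37763 (1.30, range with 1 array left out -5.33 to 1.30), RE09036 (2.10, range -2.88 to 2.10), another LD38807 probe (-0.24, range -0.24 to 0.85) and another LD42550 probe (-0.48, range -0.48 to 0.93). They turned without Top3b26 3 for RE38722 (-0.64, range -0.64 to 2.69) and RE60340 (-1.17, range -1.17 to 2.51), and for RE23826 without WT 1 (-0.32, range -0.32 to 2.54) or without its low patch (-0.51). RE43210 turned to 1.38 with outlier spots kept. The settings with outlier spots kept and without the low patch were chosen after seeing the data. Of 766 values of the 41 named probes under 19 alternatives, 711 kept their direction and side of the threshold. Every one of the 3 calls was lost under at least 6 alternatives.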
